A study of Mus musculus with 20 samples.

Results

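Uterine RNA levels of 10 genes, the metallothioneins Mt1 and Mt2, the superoxide dismutases Sod1 and Sod3, catalase (Cat), the glutathione peroxidases Gpx1, Gpx2 and Gpx3, the glutathione synthesis enzyme Gclc and heme oxygenase 1 (Hmox1), were compared across 4 groups of 5 mice. The genes were taken by their symbols from a table of 45777 genes, where all 10 were found and all 10 lay above 0 in every library. Values are in TPM, a transcript abundance scaled for length and to a fixed library total, so levels can be set beside each other between genes. Every mouse was a wild-type (WT) B6D2F1 female of 8 to 12 weeks, mated with a male, whose uterus was taken at 18:00 on day 3.5 after mating. The control group had no treatment, and no vehicle injection is described for it. The IF group, a model of implantation failure, received RU486 (mifepristone) under the skin at a low dose on the morning of day 3.5. Effects of RU486 and of its injection therefore cannot be told apart. The PBMC group received the same RU486 after blood mononuclear cells (PBMC) of non-pregnant female mice, kept in culture, had been placed in the uterine cavity on day 1.5. In the PBMC-hCG group those cells had been cultured with human chorionic gonadotropin (hCG). No group received cells without RU486, and RU486-treated mice given medium without cells were not analysed here, so effects of the cells and of the intrauterine injection cannot be told apart.

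Metallothioneins are small cysteine-rich proteins that bind zinc and copper, and their genes are classically induced by zinc through the factor MTF1 and by glucocorticoids. Superoxide dismutases turn superoxide into hydrogen peroxide, catalase and the glutathione peroxidases remove the peroxide, and glutathione is rebuilt by a reductase and made anew by glutamate-cysteine ligase, whose catalytic subunit is encoded by Gclc. Hmox1 breaks down heme, and Hmox1 and Gclc are textbook targets of the stress factor NRF2. RU486 blocks the receptors for progesterone and for glucocorticoids.

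Mt1 and Mt2 are neighbours on chromosome 8 of GRCm38 (mm10), the build used by the authors, with Mt2 at chr8:94172618-94173567 and Mt1 at chr8:94178883-94180327. Their coding sequences are shown because reads of such close relatives could be assigned to the wrong gene. They come from the GENCODE coding transcripts, without the stop codon, and capitals mark the bases at which they differ.
Mt1: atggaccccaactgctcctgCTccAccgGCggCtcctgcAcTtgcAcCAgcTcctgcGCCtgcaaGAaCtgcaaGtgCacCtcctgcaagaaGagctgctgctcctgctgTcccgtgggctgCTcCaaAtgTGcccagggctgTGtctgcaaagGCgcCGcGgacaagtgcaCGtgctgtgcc
Mt2: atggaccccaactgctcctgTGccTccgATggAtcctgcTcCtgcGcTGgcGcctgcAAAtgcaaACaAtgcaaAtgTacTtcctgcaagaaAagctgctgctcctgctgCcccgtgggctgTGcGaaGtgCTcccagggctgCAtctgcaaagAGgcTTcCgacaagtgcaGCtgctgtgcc
Of the 183 positions, 145 were identical (79.2%) and 38 differed, and the longest identical stretch was 20 bases. The 250 bases before a RefSeq transcription start of each gene are shown because both genes fell together after RU486. Capitals mark metal response element cores, searched as TGCACNC and TGCGCNC on both strands, and the antioxidant response element core, searched as TGACNNNGC on both strands. Response elements of the glucocorticoid and progesterone receptors were not searched. A role of any motif in the joint fall was not tested.
Mt1, chr8:94178839-94179088, plus strand: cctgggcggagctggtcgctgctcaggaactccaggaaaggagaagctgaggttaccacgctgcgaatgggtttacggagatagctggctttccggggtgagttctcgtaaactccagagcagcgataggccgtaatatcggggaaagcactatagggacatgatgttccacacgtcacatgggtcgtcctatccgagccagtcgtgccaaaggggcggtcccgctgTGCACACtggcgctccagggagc
Mt2, chr8:94172368-94172617, plus strand: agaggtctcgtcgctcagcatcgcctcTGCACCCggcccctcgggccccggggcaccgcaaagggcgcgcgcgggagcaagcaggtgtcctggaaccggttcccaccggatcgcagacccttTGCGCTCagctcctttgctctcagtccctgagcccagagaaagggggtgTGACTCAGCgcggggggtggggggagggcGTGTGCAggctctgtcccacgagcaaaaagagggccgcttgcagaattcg
Mt1 held 1 metal response core in these bases and 2 more in the first 50 bases after the start used here. Mt2 held 3 before the start and 1 after it, and its single antioxidant core lay 79 to 71 bases before the start without overlapping a metal core. Of 32851 RefSeq windows of the same 300 bases, 25.7% held at least 1 metal core, 1.97% held as many as Mt1 and 0.517% as many as Mt2. An antioxidant core was found in 12.4% of windows, among them that of Sod1. The windows of Cat, Gpx1, Gpx2 and Gpx3 held neither motif, and Hmox1, Sod3 and Gclc were not in the table of promoters. A match of letters is not a binding site, and the Mt1 window is placed before one of several annotated starts. Another lies upstream, so most of the Mt1 bases shown are inside the annotated gene, which begins at chr8:94178883. Further GENCODE starts of Mt1 lie downstream, outside the window, and the bases before them were not fully searched. The Mt1 motif counts and their share of windows therefore hold for the start used here only.

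The most abundant of the 10 genes was Gpx1, with a mean of 892 TPM over the 20 mice, followed by Sod1 at 641 TPM and Gpx3 at 625 TPM. Gpx2 lay at 349 TPM, Mt1 at 324 TPM and Mt2 at 305 TPM, so 6 of the 10 ranked among the 393 most abundant genes of the uterus. Cat at 70.8 TPM, Hmox1 at 38.5 TPM, Gclc at 20.4 TPM and Sod3 at 17.2 TPM were lower. All 10 uterine markers examined, with Hoxa10 as the most abundant, lay above 0 in every library, and they summed to 987 ± 31.1 TPM for control and 880 ± 51.2 TPM for IF mice (mean ± SD, 5 mice a group). Embryo markers summed to at most 1.32 TPM in any library. Of 10 ovary and oviduct genes, Cyp19a1 and Fshr were at 0 throughout, but 7 lay above 0 in every library. Of these 7, 1 was higher and 1 lower in IF than in control mice. The higher one was Foxl2, by 1.59 to 1.74 on the log2 scale with each mouse left out.

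Control replicate 2 stood apart from the other libraries. Its mean correlation with the other control mice was 0.963, against 0.977 to 0.983 for the other 4. Prss29, a protease of the uterine glands, was at 13969 TPM there and at 329 to 3408 TPM in the other control mice. Top2a, a gene of dividing cells, was at 2.42 TPM there and at 39.7 to 87.3 TPM in the others. The 8 adipose tissue markers summed to 744 TPM there and to 16.6 to 51.5 TPM in the other control mice, and the 13 epithelial markers to 20134 TPM against 1518 to 5446 TPM, whereas the 10 stromal markers were low, at 6180 TPM against 10635 to 11358 TPM. Control replicate 5 had the second highest Prss29 of its group. Among control mice, replicate 2 was lowest for Mt1, Mt2, Gpx2, Gclc and Hmox1 and highest for Sod1, Cat and Gpx3, so many of the comparisons with the control group, though not each of them, are also given without it. Adipose markers were also high in IF replicate 5, at 202 TPM against 25.2 to 41.7 TPM in the other IF mice. The part of epithelial, fat, stromal or dividing cells in the values below was not tested.

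**Figure D1:**
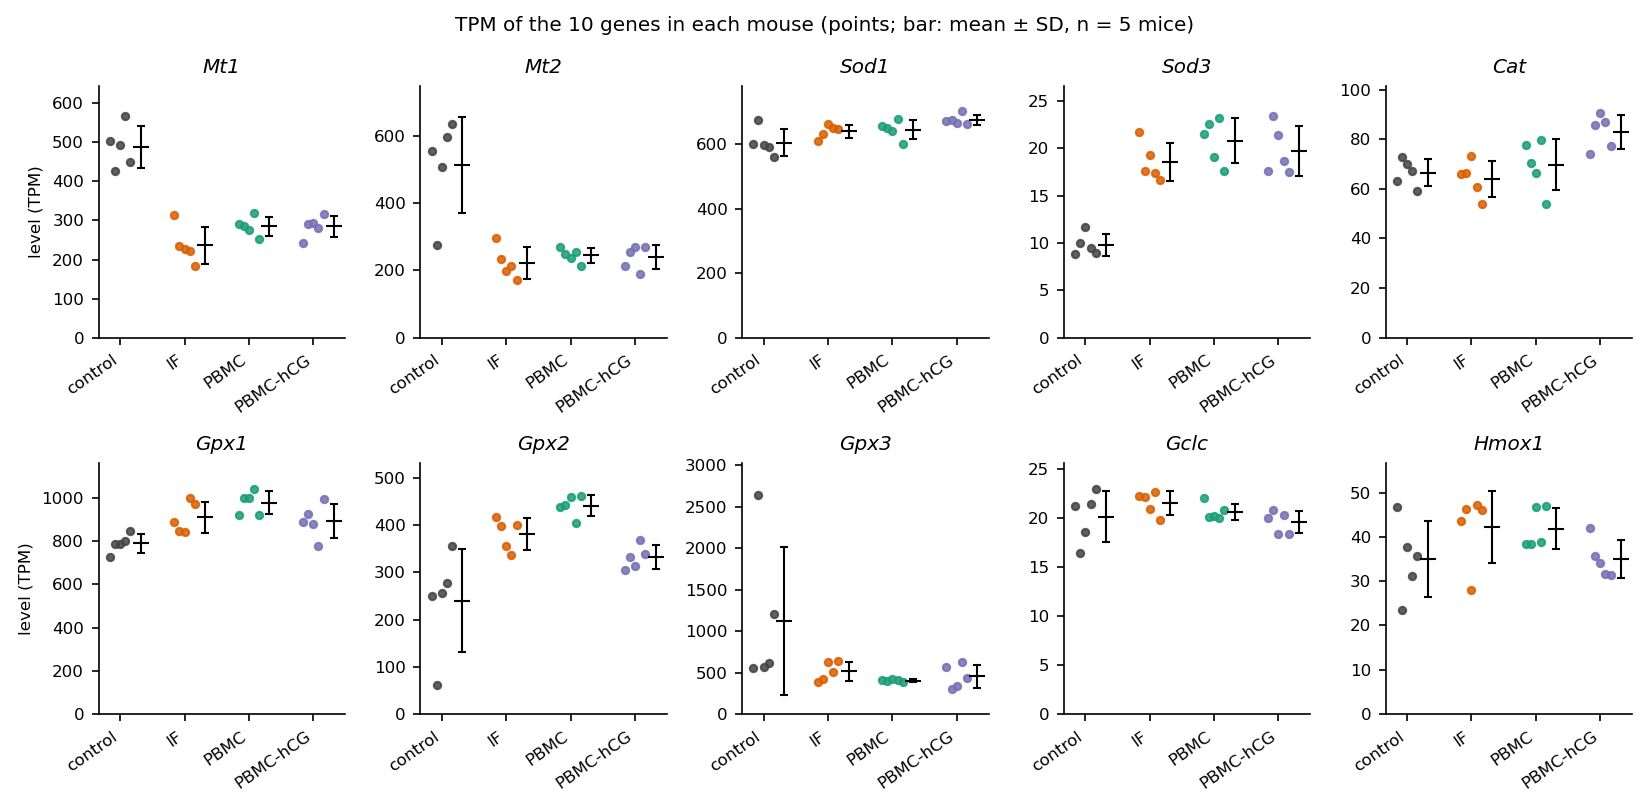
Level of each of the 10 genes in TPM (vertical axes, from 0) in each mouse (points) of the 4 groups (horizontal axes), with the mean and SD of 5 mice as a bar. Mt1 in the IF mice lay between 184 and 314 TPM, below all control mice at 426 to 566 TPM, and Gpx3 reached 2635 TPM in a single control mouse.

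The first question was how the uterus differed after the RU486 injection, before implantation. Both metallothioneins fell more than 2-fold in the IF group, and Sod3, the extracellular superoxide dismutase, rose 1.89-fold. Gpx1 and Gpx2 rose as well, while Gpx3, Sod1, Cat, Gclc and Hmox1 did not pass the test. In limma's test across 18706 genes, 5 of the 10 genes had an adjusted p under 0.05, 3 of them higher and 2 lower after RU486. Of all tested genes 21.9% passed, 13.4% as higher and 8.53% as lower. The median log2 fold change of the 10 genes was 0.09 and that of all tested genes 0.02. Values of the 5 IF mice lay wholly outside those of the 5 control mice in 2 of the 10 genes, Mt1 and Sod3, and in 12.8% of all tested genes. With median-ratio scaling of the libraries 2123 of all genes were higher and 2083 lower, against 2509 and 1595 here, so the excess of higher genes depended on the scaling. Without control replicate 2, 6 of the 10 passed, as did 26.7% of all tested genes.

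**Figure D2:**
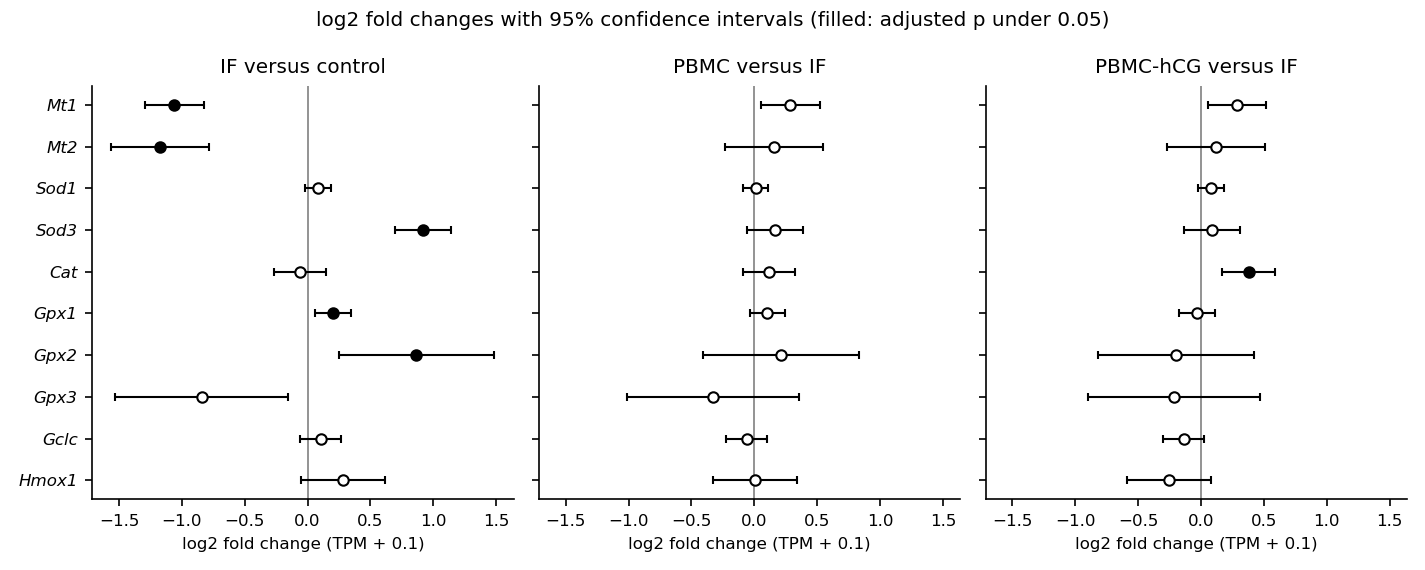
log2 fold changes on the log2(TPM + 0.1) scale (horizontal axes) of the 10 genes (vertical axis) with their 95% confidence intervals from limma, for IF against control, PBMC against IF and PBMC-hCG against IF, with filled points for an adjusted p under 0.05. Mt1 and Mt2 lay near -1 and Sod3 and Gpx2 near 0.9 in the first panel, and Cat was the only filled point in the other panels.

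Mt1 was at 504, 426, 494, 566 and 449 TPM in control replicates 1 to 5. In the IF mice it was at 314, 236, 227, 221 and 184 TPM. The groups did not overlap, and the highest IF mouse lay well under the lowest control mouse. The mean fell from 488 ± 54.3 TPM to 236 ± 47.9 TPM (mean ± SD), which limma put at -1.06 on the log2 scale (SE 0.11, adjusted p = 2.44e-06). With each mouse left out in turn it lay between -1.17 and -0.97 and always passed.

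Mt2 was at 554, 274, 506, 597 and 635 TPM in control replicates 1 to 5. In the IF group it was at 296, 233, 198, 212 and 172 TPM. Control replicate 2 was the only control mouse within reach of the IF values, and the other 4 lay above them all. The change was -1.17 on the log2 scale (SE 0.19, limma adjusted p = 0.000166), and -1.38 without control replicate 2 (adjusted p = 9.42e-07). An antisense transcript, Gm45774, overlaps Mt2, and whether counting used strand is not given in the sources used here.

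The sum of both metallothioneins was 1001 ± 178 TPM without treatment and 459 ± 94.3 TPM after RU486 alone (mean ± SD). The ratio of Mt2 to Mt1 was 1.1, 0.643, 1.02, 1.05 and 1.42 in the control mice and lay between 0.872 and 0.99 in the IF mice. The ratio was thus most variable among control mice. Over the 20 mice the log2 levels of Mt1 and Mt2 had a Pearson r of 0.914 and a Spearman rho of 0.931, and an r of 0.684 once the group means had been subtracted. These points share the library scaling and the difference between groups. Mt3, another metallothionein, fell from 15.2 ± 8.66 TPM to 6.84 ± 2.92 TPM, a log2 fold change of -1.10 (limma adjusted p = 0.0193, and 0.0586 without IF replicate 2). Mt4 did not reach the test and was listed at 0 in every RU486-treated mouse.

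**Figure D3:**
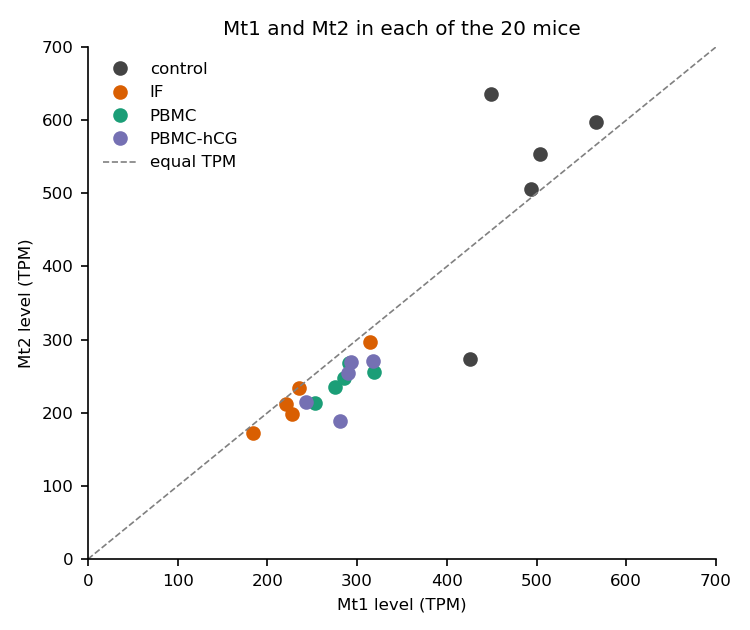
Mt2 level against Mt1 level, both in TPM, with a point for each of the 20 mice coloured by group and a dashed line of equal levels. The control mice sit at the upper right apart from replicate 2, at 426 TPM of Mt1 and 274 TPM of Mt2, and the 15 RU486-treated mice reach at most 319 TPM of Mt1.

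Sod3 was at 8.79, 9.99, 11.7, 9.48 and 8.98 TPM in the control mice. In the IF mice it was at 21.7, 17.6, 19.3, 17.4 and 16.7 TPM. Every IF mouse lay above every control mouse. The mean rose from 9.79 ± 1.17 TPM to 18.5 ± 2.03 TPM, and the log2 fold change was 0.92 (SE 0.11, limma adjusted p = 6.84e-06), or 0.93 without control replicate 2. The markers of endothelium moved the same way, since 7 of 8 rose and their sum went from 516 ± 56.2 TPM to 665 ± 33.6 TPM. Pecam1, the most abundant of them, went from 131 to 171 TPM. Of 10 stromal genes 2 rose and 1 fell, and Dcn was the most abundant of them. Dcn ran from 1653 to 1978 TPM in control and from 2688 to 3577 TPM in IF mice. Of 10 myometrial genes 0 rose and 2 fell (5 without control replicate 2). The part of endothelial, stromal or muscle cells in the Sod3 level was not tested. In whole tissue, a different number of cells of a type and a different amount of RNA per cell cannot be told apart.

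Of the 5 genes of the dismutase and catalase list, 1 rose and 2 fell in the IF group, and 1 to 2 in each direction with a mouse left out. Sod2, the mitochondrial enzyme, fell from 33.1 ± 2.37 TPM to 26.7 ± 1.82 TPM, a difference of -0.31 on the log2 scale (limma adjusted p = 0.00156). Sod1, the abundant cytosolic enzyme, ranged from 561 to 673 TPM in control and from 608 to 662 TPM in IF mice, and its log2 fold change of 0.08 had a 95% confidence interval from -0.02 to 0.18 (limma adjusted p = 0.251, and 0.0379 without control replicate 2). Ccs, which loads copper into Sod1, had a log2 fold change of -0.18 (limma adjusted p = 0.0369), with up to 0.105 when 1 mouse was left out and a pass in 14 of 20 such fits. Cat was at 63.2, 73.0, 70.1, 67.1 and 59.1 TPM in control mice and at 65.9, 66.3, 73.1, 60.7 and 53.8 TPM in IF mice. These values overlapped almost entirely, with a log2 difference of -0.06 (95% confidence interval -0.27 to 0.15). Sod1 overlaps Scaf4 on the other strand, which was at 16.6 to 20.1 TPM on average in the 4 groups.

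Of 6 glutathione peroxidases tested, 3 rose and none fell in the IF group, and without control replicate 2 the counts were 3 and 2, with 1 to 3 rising when each mouse was left out. Gpx2, an epithelial enzyme, was at 251, 62.3, 256, 279 and 355 TPM in control mice. In IF mice it was at 417, 398, 357, 337 and 400 TPM. Control replicate 2 was far below every other mouse, and only control replicate 5 reached into the IF range. The log2 fold change was 0.87 (SE 0.30, limma adjusted p = 0.0424), but 0.43 without control replicate 2 (SE 0.09, adjusted p = 0.00169). It passed in 8 of 20 fits with a mouse left out and was lost without any single IF mouse, PBMC replicates 1, 2 or 3, or PBMC-hCG replicates 2, 3, 4 or 5, where the adjusted p reached 0.0791. Epithelial markers moved in both directions, with 5 of 13 genes higher after RU486 and 2 lower (3 to 7 higher with each mouse left out), and their part in the Gpx2 level was not tested. Gpx2 overlaps Fntb, which was at 18.6 to 21.0 TPM on average.

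Gpx1, the main cytosolic enzyme, was at 726, 786, 788, 800 and 846 TPM in control mice and at 890, 848, 841, 997 and 970 TPM in IF mice. The highest control mouse lay above the lowest IF mouse by a narrow margin. The log2 fold change was 0.20 (SE 0.07, limma adjusted p = 0.0386), and the call was lost without IF replicates 1, 4 or 5 or control replicates 1, 3 or 4, with adjusted p of 0.0525 to 0.102. Gpx4, which protects membrane lipids, rose from 379 ± 17.8 TPM to 428 ± 22.8 TPM (log2 fold change 0.17, limma adjusted p = 0.0118).

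Gpx3, the secreted enzyme, was at 560, 2635, 569, 619 and 1211 TPM in control mice. In IF mice it was at 389, 428, 630, 505 and 640 TPM. Control replicates 2 and 5 were high, and the other 3 lay among the IF values. The log2 difference of -0.84 did not pass (SE 0.33, limma adjusted p = 0.0742), and was -0.46 without control replicate 2 (adjusted p = 0.156) and -0.20 without replicates 2 and 5 (adjusted p = 0.53). Without control replicate 1 it passed (-1.02, adjusted p = 0.0414), as it did without replicate 3. Gpx3 and Prss29 had a Pearson r of 0.661 over the 20 mice, or 0.409 without control replicate 2, and an r of 0.926 and 0.857 once the group means had been subtracted. The points share the library scaling. No such relation was visible in the PBMC group, where Gpx3 stayed at 385 to 419 TPM while Prss29 ran from 474 to 1372 TPM. Prss29 itself did not pass between IF and control (0.56 on the log2 scale, adjusted p = 0.687, and 1.42 without control replicate 2, adjusted p = 0.118).

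**Figure D4:**
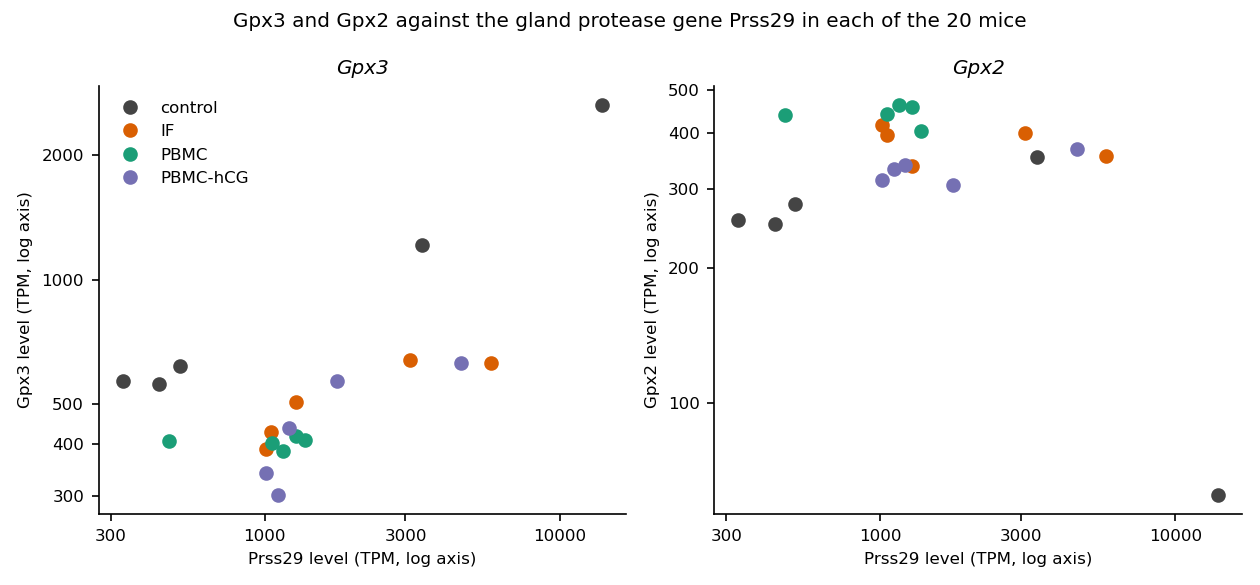
Gpx3 (left) and Gpx2 (right) level against Prss29 level, all in TPM on log axes, with a point for each of the 20 mice coloured by group. Gpx3 was highest, at 2635 TPM, and Gpx2 lowest, at 62.3 TPM, in the control mouse with 13969 TPM of Prss29.

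Hmox1 was at 46.8, 23.5, 37.7, 31.2 and 35.7 TPM in control mice and at 43.5, 46.3, 28.0, 47.2 and 46.0 TPM in IF mice. The groups overlapped, with only IF replicate 4 above all control mice, and IF replicate 3 was well below the other IF mice. The log2 difference of 0.28 did not pass (95% confidence interval -0.05 to 0.61, limma adjusted p = 0.231), though without IF replicate 3 it was 0.42 (adjusted p = 0.0426) and without control replicate 2 it was 0.15 (adjusted p = 0.497). Gclc stayed between 16.4 and 23.0 TPM in all 20 mice, with a log2 difference of 0.11 (95% confidence interval -0.06 to 0.27, limma adjusted p = 0.369, and 0.04 without control replicate 2).

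The next question was what the transferred cells changed beyond RU486. Between the PBMC and IF groups none of the 10 genes passed, and of all 18706 genes 0% passed in limma. With each mouse left out in turn, 0 to 2 genes of the whole table passed, none of them among the 10. In limma with all mice, Mt1 was the only one of the 10 genes with an unadjusted p under 0.05. Mt1 was at 291, 286, 275, 319 and 254 TPM in the PBMC group. All 5 lay above the IF mean of 236 TPM, and the highest lay above every IF mouse. The groups overlapped only through IF replicate 1, at 314 TPM, as the other IF mice lay between 184 and 236 TPM. The log2 difference of 0.29 had an adjusted p of 0.701 in limma (95% confidence interval 0.05 to 0.52). In a two-sided exact permutation test of these 10 mice alone, Mt1 had an unadjusted p of 0.0714. Gpx2 was 0.21 higher in the PBMC than in the IF group on the log2 scale (SE 0.30, limma adjusted p = 0.9), where the error rests on control replicate 2. Without that mouse the SE was 0.08 (adjusted p = 0.518), and the exact permutation test gave Gpx2 an unadjusted p of 0.0159.

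Between the PBMC-hCG and IF groups, Cat was the only one of the 10 genes to pass, in a comparison in which 13.6% of all tested genes passed. The exact permutation test of these 10 mice alone gave unadjusted p-values of 0.00794 for Cat and Sod1, and 0.0476 for Gpx2 and Gclc. The share of all genes with such values, or without overlap between these groups, was not computed. Gpx2 was lower than in the IF group, at -0.20 on the log2 scale (limma adjusted p = 0.667, and 0.0382 without control replicates 2 and 5). Cat was at 73.9, 85.8, 90.5, 87.1 and 77.4 TPM in the PBMC-hCG mice. Every one of them lay above all IF and all control mice, by a small margin over the highest IF mouse at 73.1 TPM. The mean was 82.9 ± 6.97 TPM against 63.9 ± 7.19 TPM (mean ± SD), or 0.38 on the log2 scale (SE 0.10, limma adjusted p = 0.0307). The fold change stayed between 0.32 and 0.43 with any mouse left out, but the adjusted p passed in 13 of 20 such fits and was 0.0543 to 0.106 when IF replicates 2, 4 or 5 or PBMC-hCG replicates 2, 3, 4 or 5 were left out. The whole comparison rested on single mice likewise, with 2544 genes called in all, 0 once IF replicate 5 or PBMC-hCG replicate 3 was left out, 8, 14, 1, 18 and 34 without IF replicates 2 and 4 and PBMC-hCG replicates 2, 4 and 5, and 5062 without IF replicate 3. Every other call between these groups shares that limit. Among cell markers, 2 of 10 uterine, 1 of 13 epithelial, 1 of 10 stromal and 1 of 8 endothelial genes were also higher than in IF mice. None of these 4 lists held a lower gene. The part of these cells in the Cat level was not tested.

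In the PBMC group Cat was at 77.7, 70.6, 66.5, 79.8 and 54.0 TPM. These values ran from the lowest IF mouse to within the PBMC-hCG range. The PBMC-hCG group differed from the PBMC group by 0.26 on the log2 scale (95% confidence interval 0.05 to 0.47), which did not pass after adjustment over all genes (limma adjusted p = 0.283). The 3 genes whose levels followed Cat most closely over the 20 mice, among 15771 genes compared, were Rnf135 (Pearson r = 0.960), Casp9 (r = 0.957) and Agtrap (r = 0.955), and the group-centred r was 0.953, 0.931 and 0.939.

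Mt1 and Mt2 stayed low after both cell treatments. Mt1 was at 243, 290, 293, 281 and 318 TPM in the PBMC-hCG mice. It was 0.29 higher than in the IF group on the log2 scale, which did not pass (95% confidence interval 0.05 to 0.52, limma adjusted p = 0.0815), except when IF replicate 1 (adjusted p = 0.0254) or PBMC-hCG replicate 1 (adjusted p = 0.0415) was left out. Mt2 was at 214, 254, 270, 188 and 271 TPM, and its log2 difference from the IF group was 0.12 (95% confidence interval -0.27 to 0.51). For Mt1, the PBMC and PBMC-hCG groups were nearly level, with a difference of 0.00 and an interval from -0.23 to 0.23.

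Sod3 was at 21.5, 22.6, 19.1, 23.2 and 17.5 TPM in the PBMC group and at 17.6, 23.4, 21.4, 18.7 and 17.5 TPM in the PBMC-hCG group. Both groups overlapped with the IF mice, and the log2 differences from the IF group of 0.16 and 0.08 did not pass. Sod1 was at 663 to 702 TPM in the PBMC-hCG group, above all 5 IF mice, yet by 0.08 on the log2 scale only (95% confidence interval -0.02 to 0.18, limma adjusted p = 0.247). Its unadjusted p in the exact permutation test of these 10 mice was 0.00794. Gpx2 was at 306, 334, 314, 370 and 340 TPM in the PBMC-hCG group and at 439, 443, 459, 405 and 462 TPM in the PBMC group. These did not overlap, and the PBMC-hCG mice were the lower ones. The log2 difference of -0.41 did not pass with all mice in the fit (SE 0.30, limma adjusted p = 0.454). The error is shared by all groups and was 0.08 without control replicate 2 (adjusted p = 0.159), and the difference passed without control replicates 2 and 5 (adjusted p = 0.0406), a choice made after the data had been seen. Hmox1 was at 41.9, 35.6, 34.0, 31.5 and 31.5 TPM in the PBMC-hCG group, with a log2 difference of -0.26 from the IF group (limma adjusted p = 0.26, and 0.0461 without IF replicate 3). Between the PBMC-hCG and PBMC groups none of the 10 genes passed in limma, in a comparison in which 0.0107% of all tested genes did, and Cat was the only one with an unadjusted p under 0.05 in the fit with all mice. The exact permutation test of the 10 mice alone gave unadjusted p-values of 0.0476 for Cat and 0.00794, the smallest it can give, for Gpx2. Here too the share of all genes with such values or without overlap was not computed.

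Both cell-treated groups were also set against the control group, which they share with the IF comparison, so the results are not independent. In the PBMC group 6 of the 10 genes passed, 3 higher and 3 lower, while 19.5% of all tested genes passed, 12.8% as higher and 6.7% as lower. In the PBMC-hCG group 6 passed, 3 higher and 3 lower, while 31.8% of all tested genes passed, 20.2% as higher and 11.6% as lower. That split also depended on the scaling, with 2797 genes higher and 2966 lower in the PBMC-hCG group under median-ratio scaling against 3772 and 2169 here, and 1856 and 1676 in the PBMC group against 2400 and 1253. Without control replicate 2, 7 of the 10 passed in each, Sod1 among them in the PBMC group (0.13, adjusted p = 0.0261), beside 24.7% of all tested genes in the PBMC and 40.1% in the PBMC-hCG group. Mt1 differed from control by -0.77 in each group (limma adjusted p = 8.63e-05 and 6.03e-05). Mt2 differed by -1.02 and -1.06 (adjusted p = 0.000703 and 0.000349), and its control mice, replicate 2 included, all lay above the cell-treated mice. Sod3 was higher by 1.08 and 1.0 (adjusted p = 1.41e-06 and 3.02e-06), again without overlap. The 8 endothelial markers summed to 516 ± 56.2 TPM in the control, 697 ± 49.0 TPM in the PBMC and 763 ± 43.7 TPM in the PBMC-hCG group, with 6 and all 8 of them higher than control. In the PBMC-hCG group 6 of 10 myometrial genes were also lower and 3 of 8 tested lymphocyte genes higher than control, against none of either in the PBMC group. Of 13 epithelial genes, 5 were higher and 2 lower in the PBMC-hCG group, and 5 and 1 in the PBMC group. Of 10 stromal genes, 3 were higher and 2 lower in each. In the PBMC-hCG and PBMC groups, 3 and 1 of 10 tested macrophage genes were higher and none lower. The same held for 1 and 2 of 5 tested neutrophil genes and 2 and 3 of 8 genes of handling stress. The part of these cells and of handling in the values was not tested.

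Gpx1 was higher than control by 0.31 in the PBMC group (limma adjusted p = 0.00333) and by 0.17 in the PBMC-hCG group (adjusted p = 0.0584), which passed when control replicate 5 or PBMC-hCG replicate 4 was left out. Gpx2 was higher by 1.08 (adjusted p = 0.0145) and by 0.67 (adjusted p = 0.0922), and without control replicate 2 by 0.64 (adjusted p = 5.44e-05) and 0.23 (adjusted p = 0.0461). Gpx3 was at 385 to 419 TPM in the PBMC group and at 302 to 629 TPM in the PBMC-hCG group. Its level fell by 1.17 and 1.06 relative to control on the log2 scale (adjusted p = 0.0164 and 0.0197), but fell by 0.79 and 0.67 without control replicate 2 (adjusted p = 0.0183 and 0.0271), and fell by 0.52 and 0.41 without control replicates 2 and 5, where neither passed (adjusted p = 0.0768 and 0.128). For the PBMC-hCG group the call was also lost without control replicate 5 or PBMC-hCG replicates 2 or 3 (adjusted p up to 0.0562). Cat was higher by 0.32 in the PBMC-hCG group (adjusted p = 0.0206), and the call was lost without control replicate 5 (adjusted p = 0.06) or PBMC-hCG replicate 3 (adjusted p = 0.0553). Sod1 was higher by 0.16 there (adjusted p = 0.0164), with 0.0506 without control replicate 5, and scaling each library by the median ratio of its genes reduced the difference to 0.08 (adjusted p = 0.228).

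The wider pathways were examined with 12 lists of genes. Their counts stand beside the 13.4% of all tested genes that were higher and the 8.53% that were lower in the IF group, and the 7.61% higher and 5.99% lower between PBMC-hCG and IF, so a list near these shares did not stand apart. Under median-ratio scaling the shares were 11.3% and 11.1% in the IF group and 6.31% and 7.84% between PBMC-hCG and IF. Without control replicate 2, 21.7% of all tested genes passed between PBMC-hCG and IF against 13.6% with it, and with single mice left out the calls in each list between these groups could go to 0. Of 25 tested genes of zinc and copper transport, 3 rose and 3 fell in the IF group, with a median log2 fold change of 0.04. With control replicate 2 left out, 2 rose and 4 fell, as the zinc transporter Slc30a7 was not called (adjusted p = 0.0772) and Slc39a14 passed as lower (-0.41, adjusted p = 0.0134). Slc39a4, a zinc importer, fell from 408 ± 33.9 to 239 ± 77.2 TPM (log2 fold change -0.82, limma adjusted p = 0.00547), and Slc39a11 from 20.6 to 13.5 TPM (-0.61, adjusted p = 0.000657). Slc39a8, an importer of zinc and manganese, rose from 74.5 ± 27.6 to 117 ± 18.0 TPM (0.70, adjusted p = 0.0058). Cp, the copper-carrying ferroxidase ceruloplasmin, fell from 32.7 to 23.3 TPM (-0.50, adjusted p = 0.00394). Mtf1, the zinc-sensing factor, was at 8.22 ± 0.718 TPM in control and 8.92 ± 0.623 TPM in IF mice and did not pass (adjusted p = 0.295). Between the PBMC-hCG and IF groups 1 of the 25 rose and 2 fell, namely Slc31a2, a copper transporter (0.71, adjusted p = 0.0287), Slc39a6 (-0.47, adjusted p = 0.0451) and Slc39a7 (-0.44, adjusted p = 0.0287). Each of these 3 calls was lost in some fits with a mouse left out.

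Of 15 genes known to be induced by glucocorticoids, Mt1 and Mt2 among them, 8 fell (53.3%) and 4 rose (26.7%) in the IF group, with a median log2 fold change of -0.57. With each mouse left out, 7 to 8 fell and 1 to 4 rose, and 2 rose without control replicate 2. Zbtb16, a transcription factor, fell from 36.2 ± 6.0 TPM to 2.42 ± 1.16 TPM (log2 fold change -3.95, limma adjusted p = 2.84e-09). Fkbp5, a chaperone of steroid receptors, fell from 42.7 ± 6.53 to 12.2 ± 2.41 TPM (-1.81, adjusted p = 1.34e-07). Tsc22d3, which encodes the glucocorticoid-induced leucine zipper, fell from 126 ± 44.3 to 45.8 ± 14.4 TPM (-1.45, adjusted p = 0.000124). Pdk4, a kinase that restrains pyruvate oxidation, rose (1.19, adjusted p = 0.0236), and its call was lost in 5 of 20 fits with a mouse left out (adjusted p up to 0.0707). After PBMC-hCG, Tsc22d3 was at 76.5 ± 13.5 TPM, 0.77 above the IF group (adjusted p = 0.0363), and Zbtb16 at 4.12 ± 0.4 TPM, 0.85 above it (adjusted p = 0.0326). Sgk1 (-1.06, adjusted p = 0.0287) and Lcn2 (-1.30, adjusted p = 0.0417) were lower than in the IF group, and 2 genes of the list rose and 4 fell in all. Mt1 and Mt2 are not among them.

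**Figure D5:**
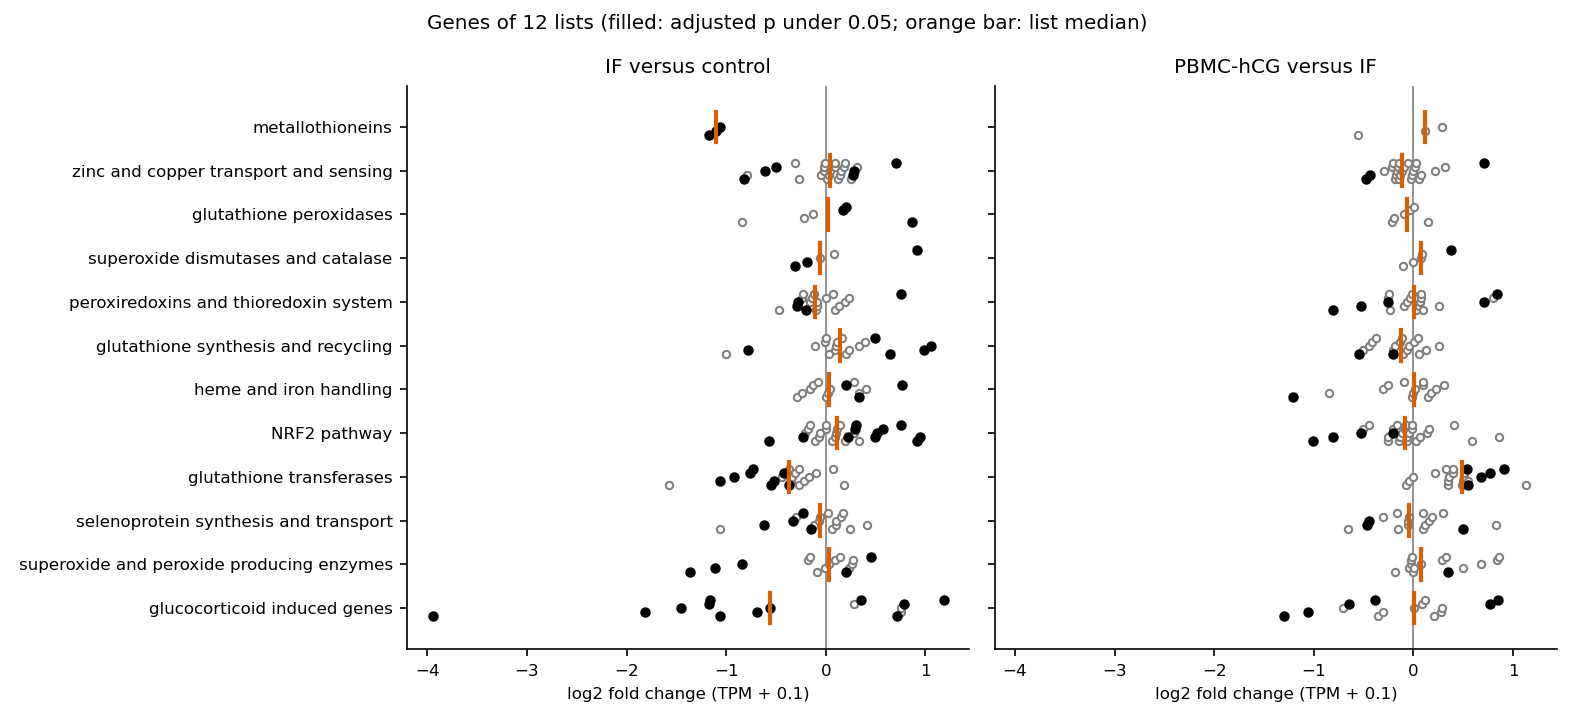
log2 fold changes on the log2(TPM + 0.1) scale (horizontal axes) of the tested genes of 12 lists (vertical axis) for IF against control (left) and PBMC-hCG against IF (right), with a point per gene, filled where the adjusted p was under 0.05, and the list median as an orange bar. The median of the glutathione transferases was -0.37 on the left and 0.49 on the right, while all 3 metallothioneins tested lay near -1.1 on the left and none was filled on the right.

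Of 21 tested glutathione transferases, which join glutathione to reactive compounds, 8 fell (38.1%) and none rose in the IF group, with a median of -0.37 beside 0.02 over all genes. Relative to IF mice, 5 rose in PBMC-hCG mice (23.8%) and none fell, with a median of 0.49 beside 0.05. Both comparisons use the IF mice, with opposite sign, so their directions are not independent. Gsta4 went from 69.5 TPM in control mice to 42.4 ± 14.0 TPM in IF mice and 77.9 ± 14.6 TPM in PBMC-hCG mice. Its log2 fold changes were -0.76 (limma adjusted p = 0.0109) and 0.91 (adjusted p = 0.0258). Gstm7 fell by 0.93 (adjusted p = 0.00515) and rose by 0.77 (adjusted p = 0.0352). Gstm6 (-1.06, adjusted p = 0.00719) and Gstm2 (-0.74, adjusted p = 0.0408, with a pass in 13 of 20 fits with a mouse left out) fell in the IF group, and Gstm1 (0.55, adjusted p = 0.0391) and Gstt3 (0.67, adjusted p = 0.0491) rose in the PBMC-hCG group. With each mouse left out, 7 to 10 of the list fell in the IF group, and 0 to 9 rose in the PBMC-hCG group. Gstm genes are close relatives, so reads may have been divided among them with error.

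Of 27 genes of the NRF2 pathway, 9 rose (33.3%) and 2 fell (7.41%) in the IF group (median 0.12), and 6 to 10 rose with each mouse left out. Of the 9 that rose, 6 encode transcription factors, namely the activators Nfe2l2 (NRF2 itself) and Nfe2l1, the Maf partners Mafk and Maff, and the repressors Bach1 and Bach2. Nfe2l2 rose from 94.1 ± 5.95 to 116 ± 4.11 TPM (log2 fold change 0.30, limma adjusted p = 0.000128). Bach2 rose from 2.07 to 4.13 TPM (0.95, adjusted p = 0.000317), Maff to 20.5 TPM (0.91, adjusted p = 0.0336, with a pass in 14 of 20 fits with a mouse left out) and Sqstm1, an autophagy receptor, from 306 to 450 TPM (0.58, adjusted p = 0.000877). Srxn1, which repairs peroxiredoxins, rose from 29.1 ± 4.32 to 50.0 ± 12.7 TPM (0.76, adjusted p = 0.0173, and 0.055 without IF replicate 5). Nqo1, a quinone reductase (-0.20, adjusted p = 0.504), Gclm, the modifier subunit of the glutathione-making ligase (0.01, adjusted p = 0.98), Gclc and Hmox1 did not pass with all mice. These 4 were chosen after their values were seen. Without control replicate 2, Nqo1 passed as lower (-0.41, adjusted p = 0.0495). Relative to the IF group, Maff (-1.01, adjusted p = 0.038), Srxn1 (-0.81, adjusted p = 0.032), Txnrd1 (thioredoxin reductase, -0.52, adjusted p = 0.0407) and Pgd, an NADPH source (-0.21, adjusted p = 0.0402), were lower in the PBMC-hCG group and none was higher, while 3 of the list were higher without control replicate 2. These 4 passed in 12 or 13 of 20 fits with a mouse left out.

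Among 18 genes of glutathione synthesis and recycling, 4 rose and 1 fell in the IF group. Gsr, glutathione reductase, rose from 39.5 ± 5.32 to 62.3 ± 11.6 TPM (log2 fold change 0.65, limma adjusted p = 0.00277) and was at 42.6 ± 8.20 TPM in the PBMC-hCG group, 0.55 below the IF group (adjusted p = 0.0296). Ggt5 (1.06, adjusted p = 0.00424) and Chac1 (0.99, adjusted p = 0.00426), which both break down glutathione, rose, and Chac2 fell (-0.78, adjusted p = 0.00218). Of 20 genes of the peroxiredoxin and thioredoxin system, 1 rose and 3 fell in the IF group, and 0 to 2 rose and 1 to 5 fell with each mouse left out. The falls were small, in Txn2 (-0.29, adjusted p = 0.025), Prdx6 (-0.28, adjusted p = 0.0286) and Prdx3 (-0.19, adjusted p = 0.0137). In the PBMC-hCG group 2 of them rose and 3 fell relative to the IF group, with the sestrins Sesn1 (0.84, adjusted p = 0.0418) and Sesn3 (0.71, adjusted p = 0.0292) as the rises.

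Of 17 genes of selenoproteins and of their synthesis and transport, 4 fell (23.5%) and none rose in the IF group, while 21.9% of all tested genes passed there in either direction. They were Pstk (-0.62, limma adjusted p = 0.00485), Eefsec (-0.33, adjusted p = 0.0234), Scly (-0.23, adjusted p = 0.0449) and Selenow (-0.15, adjusted p = 0.0491), and 1 to 5 fell with each mouse left out. Scly and Selenow were lost in most such fits, with adjusted p up to 0.105 and 0.122. With control replicate 2 left out, 5 fell and 1 rose. Scly was then not called (adjusted p = 0.0775), while Selenoh (-0.45, adjusted p = 0.00314) and Lrp2, an endocytic receptor (-1.53, adjusted p = 0.00603), passed as lower and Selenop as higher (0.53, adjusted p = 0.010). Selenop, the selenium carrier, was at 690 ± 175 TPM in the IF group and 960 ± 139 TPM in the PBMC-hCG group (0.50, adjusted p = 0.0409), while Sephs2 (-0.47, adjusted p = 0.0287) and Selenos (-0.45, adjusted p = 0.0403) were lower. Of 14 genes of heme and iron handling, 3 rose and none fell in the IF group, namely the iron exporter Slc40a1 (0.76, adjusted p = 0.0213), Alas1 (0.33, adjusted p = 0.0475) and Blvrb (0.21, adjusted p = 0.0232), and 0 to 3 rose with each mouse left out. Alas1 passed in 6 of 20 such fits. Without control replicate 2, Alas1 was not called (adjusted p = 0.0668) and Blvra, a biliverdin reductase, passed as lower (-0.38, adjusted p = 0.000998), so 2 rose and 1 fell. The transferrin receptor Tfrc was 1.21 lower in the PBMC-hCG than in the IF group (adjusted p = 0.0422), and the red cell markers summed to 522 ± 224 TPM there against 1080 ± 452 TPM, with Hbb-bs as the most abundant and 2 of 6 tested as lower. Their part in the heme and iron genes was not tested.

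Of 15 enzymes that make superoxide or peroxide, 3 fell and 2 rose in the IF group, and 1 to 2 rose with each mouse left out. Maob, a monoamine oxidase, fell from 209 ± 88.0 to 91.9 ± 29.7 TPM (-1.12, limma adjusted p = 0.00998), Noxa1 from 3.50 to 1.12 TPM (-1.37, adjusted p = 0.0114) and Nox4 from 2.35 to 1.35 TPM (-0.85, adjusted p = 0.015). Ncf1, a subunit of the phagocyte oxidase, was among the rises (0.45, adjusted p = 0.0476), with a pass in 8 of 20 fits with a mouse left out. Cybb, the core of that oxidase, was 0.34 higher in the PBMC-hCG than in the IF group (adjusted p = 0.0496) and passed in 5 of 20 such fits. Macrophage markers moved with Ncf1 in part. Adgre1 (0.23, adjusted p = 0.0459, and 0.0748 without control replicate 2) and Csf1r (0.32, adjusted p = 0.0436) were higher in IF than in control mice. Of the 10 tested none was lower and 8 were not called, with a median log2 fold change of 0.08. With each mouse left out, 0 to 2 were higher. Adgre1 passed in 5 of 20 such fits, and Csf1r was lost in some (adjusted p up to 0.121). C1qa, the most abundant macrophage marker, was at 212 TPM in both groups. The part of macrophages in the Ncf1 level was not tested. The macrophage markers summed to 765 ± 66.3 TPM in the control, 810 ± 38.7 TPM in the IF and 880 ± 104 TPM in the PBMC-hCG group, and the lymphocyte markers, with Nkg7 as the most abundant, to 83.7 ± 18.9 TPM in the IF and 101 ± 14.2 TPM in the PBMC-hCG group. No marker of either list passed between PBMC-hCG and IF. Between control and IF mice, 0 of 10 myometrial genes were higher and 2 lower, but 5 were lower without control replicate 2, with a range of 0 to 5 when each mouse was left out. Of 10 uterine markers, 4 were higher and 2 lower. Hoxa10 was among the lower ones, at -0.998 to -0.790 on the log2 scale with each mouse left out. Of the other marker lists, 2 of 10 stromal genes were higher and 1 lower, and 1 of 5 tested neutrophil genes was higher (0 without control replicate 2). For adipose tissue, 1 of 2 tested genes was higher (0 to 1 with each mouse left out). Of 7 tested ovary and oviduct genes, 1 was higher and 1 lower (0 to 2 lower with each mouse left out). Of 10 reference genes 2 were higher, and without control replicate 2 another 2 were lower, and 2 of 8 genes of handling stress were higher (1 without control replicate 2). The 8 handling stress genes summed to 489 ± 152 TPM in control and 766 ± 116 TPM in IF mice. The part of handling in the other values was not tested.

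As a description, the genes whose levels followed the others of the 10 most closely over the 20 mice were Pde1a (Pearson r = 0.955), Aldh9a1 (0.947) and Ppfia2 (0.942) for Mt1, and Phgdh (0.967), Psmg1 (0.958) and Mrpl42 (0.956) for Mt2. For Sod3 they were Steap3 (0.959), Afap1l2 (0.955) and Slc26a7 (0.954). For Sod1 they were Mknk2 (0.929), Bcas3 (0.917) and Vsir (0.915), and for Hmox1 Snx3 (0.932), Msn (0.915) and Actr1a (0.913). For Gpx2 they were Fut2 (0.934), Pcdh7 (0.921) and Mcam (0.919), and for Gpx3 Fkbp2 (0.948), Pcolce2 (0.906) and Arl4d (0.896), and without control replicate 2 those values fell to between 0.690 and 0.928. Gpx1 with Arntl (0.792), Kank4 (0.788) and Aopep (0.772) and Gclc with Tm9sf4 (0.805), Tmtc3 (0.782) and Slc6a14 (0.776) had no partner as close. The points share the difference between groups. Subtracting the group means lowered r for Mt1 with Pde1a to 0.751 and for Sod3 with Steap3 to 0.599. It raised r for Gpx3 with Arl4d to 0.936 and for Gclc with Tm9sf4 to 0.822 and with Tmtc3 to 0.805. Without control replicate 2, the 3 Gclc values fell to between 0.617 and 0.671. With the group means subtracted as well, they lay between 0.476 and 0.653.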

How the data were processed

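The 20 libraries are each from 1 uterine horn of 1 mouse. According to the methods, the authors made stranded mRNA libraries, used Trimmomatic for trimming, HISAT2 for mapping to mm10 and StringTie for assembly, and deposited TPM values per gene. Library totals lay between 999989 and 999999 TPM, so depth is unknown and no counting error is given. Versions of these tools and any sequencing batch are not given in the sources used here.

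log2(TPM + 0.1) of the 18706 genes above 0 in all 20 libraries was fitted with limma 3.58.1 (R 4.3.3, variance trend, all 4 groups together, two-sided), with Benjamini-Hochberg adjustment over all tested genes within each comparison. Two-sided exact permutation tests of single genes were an alternative, run for the 10 genes only. No share over all genes therefore stands beside their p-values. The share of all genes without overlap was computed for IF against control only. The pseudocount shrinks fold changes of low genes. Levels, correlations and plots were made in Python with pandas 2.3.3 and matplotlib 3.10.9. The procedure was tested on simulated data with independent normal noise for each gene. That setting held no outlying mouse, so it cannot show how calls that rest on single mice behave. Sequences came from RefSeq (GRCm38.p6, 7 of 10 genes matched) and GENCODE.

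The 10 genes and all lists were chosen with earlier results of these data known. Besides the 10, up to 4 called genes per pathway list with the largest change and a mean of at least 1 TPM were named, the most abundant marker of lists shown, and the 3 genes most correlated with each of the 10. Nfe2l2, Nfe2l1, Mafk, Bach1, Nqo1, Gclm, Mtf1, Adgre1, Csf1r and Top2a were added for their role after their values had been seen. Mice were matched to groups by labels, and replicate numbers did not pair them. Alternatives were other pseudocounts, filters, scalings, fits and thresholds, and each mouse left out. The median-ratio scaling follows the size factors of counts but was applied to TPM.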

Additional observations from a re-analysis of the deposited data

Results flagged for a closer look

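In each gene and group of 5 mice, the highest and lowest log2 level were compared with the rest by Dixon's ratio, the gap to the nearest mouse divided by the whole range, and 4 of 40 groups passed the critical value of 0.71. Chance gives about 1 in 20 such groups. Mt2 in control replicate 2 had a ratio of 0.729, at 274 TPM. Gpx2 in the same mouse had a ratio of 0.801, at 62.3 TPM. Hmox1 in IF replicate 3 had a ratio of 0.842, at 28.0 TPM. Sod1 in PBMC-hCG replicate 4 had a ratio of 0.719, at 702 TPM, although the whole group spanned only 663 to 702 TPM. Of the 4, 2 fell in control replicate 2, whose high Prss29 and adipose markers are given with the data, and the cause was not tested.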

How the results depend on the processing

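Mt1, Mt2 and Sod3 passed between IF and control mice in each of the 20 fits with a mouse left out. Of 10 genes, 5 were called between these groups, beside 21.9% of all tested genes. The count was 3 with no filter (12.5% of all), with the 2 groups alone (13.2%) or with no variance trend (21.3%), 2 under the study's criteria of a fold of at least 2 and an unadjusted p under 0.05 (4.03%), and 3 to 6 with each mouse left out (3 without IF replicates 1, 4 or 5). For PBMC-hCG against IF the count was 1, beside 13.6% of all, but 0 with no filter (2.65%) or under the study's criteria (2.31%), 2 after quantile normalization (14.6%) or without control replicates 2 and 5 (22.7%, an alternative chosen after seeing the data), and 0 to 2 with each mouse left out. Between PBMC-hCG and PBMC it was 0, and 1 without control replicates 2 and 5 (0.0159% of all). Between PBMC-hCG and control it was 6, and 3 under the study's criteria (4.74% against 31.8%). Of all genes called, 61.1% were higher in IF than control, 65.7% in PBMC and 63.5% in PBMC-hCG, against 50.5%, 52.5% and 48.5% with median-ratio scaling and 50.8%, 53.6% and 53.4% after quantile normalization, and between PBMC-hCG and IF 55.9% against 44.6% with median-ratio scaling. The causes were not tested.

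Differences near 0 turned sign. With median-ratio scaling, Gclc in PBMC against control was -0.0060, Hmox1 in PBMC against IF -0.012 and in PBMC-hCG against control -0.051, and Sod1 in PBMC against IF -0.00755. After quantile normalization, Gclc in PBMC against control was -0.0013, Gpx1 in PBMC-hCG against IF 0.019, Hmox1 in PBMC-hCG against control -0.017, and Mt1 and Mt2 in PBMC-hCG against PBMC 0.059 and 0.018. Hmox1 in PBMC-hCG against control was -0.13 without control replicates 2 and 5. With each mouse left out, Cat in IF against control ranged from -0.11 to 0.00048, Gclc in PBMC against control from -0.027 to 0.094 and in PBMC-hCG against control from -0.10 to 0.017, Gpx1 in PBMC-hCG against IF from -0.070 to 0.019, Gpx3 in PBMC-hCG against PBMC from -0.017 to 0.25, Hmox1 in PBMC against IF from -0.13 to 0.054 and in PBMC-hCG against control from -0.11 to 0.14, Mt1 in PBMC-hCG against PBMC from -0.042 to 0.055, Mt2 there from -0.086 to 0.045, and Sod1 in PBMC against IF from -0.0071 to 0.038. No replicate number paired the mice in the labels, and deviations of same-numbered mice had correlations of -0.247 to 0.457. With the replicate number as a block, 4 genes were called between IF and control, where Gpx1 no longer passed (adjusted p = 0.0507). TPM keeps no depth, so counting error of the low genes is unknown.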
